A study of Danio rerio with 8 samples.

Results

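The integrin subunit genes of zebrafish chondrocytes, the cells that build cartilage, were described in 8 RNA-seq libraries. Members were all genes of the deposited expression table whose symbol starts with itga or itgb, without the itgb1bp genes, which encode binding proteins and not subunits. The rule used no measured value and found 34 of 32057 genes: 21 alpha subunit genes, 12 beta subunit genes and itgbl1, a secreted protein that shares repeats with beta subunits but is not one. They were grouped by the ligand that their mammalian counterparts are known to bind. This gave 7 genes of collagen receptors, 11 of fibronectin or RGD receptors, 6 of laminin receptors and 5 of leukocyte integrins. RGD is a short peptide motif in matrix proteins. A further 4 were beta1 genes, whose product pairs with alpha subunits of several classes.

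Integrins are cell surface receptors made of 1 alpha and 1 beta chain. The alpha chain largely sets which matrix protein is bound, and the beta chain recruits talin and kindlin, adaptors that switch the receptor on and tie it to the actin cytoskeleton. Chondrocytes sit in a collagen type II matrix, for which integrin alpha10 beta1 is a known receptor, and they also carry the fibronectin receptor alpha5 beta1. Integrin alpha9 beta1 binds tenascin C, osteopontin and a spliced form of fibronectin, and is known for its role in lymphatic valves.

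Both groups carried Tg(sox10:EGFP) and Tg(col2a1a:mcherry), in which the sox10 promoter, active in neural crest and its derivatives, and the col2a1a promoter, active in cartilage, drive fluorescent proteins. Larvae were kept at 28.5 degrees Celsius with 0.003% PTU, which blocks pigment, and 3 days after fertilisation whole larvae gave the cells, which were sorted for expression of both reporters. The 4 WT libraries were compared with 4 from larvae deficient in kat6a, a gene that encodes a histone acetyltransferase, and the series calls them biological replicates. The sources used here do not give the lesion in kat6a.

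Values are FPKM, fragments scaled to the length of the transcript and to the mapped fragments of the library, so levels can be set side by side between genes, and values for 4 libraries are in the order of replicates 1 to 4. FPKM does not keep read counts, so the depth behind a value is unknown; the deposited values summed to 311061 to 339307 per library, and 11010 to 16108 genes were above 0. The libraries numbered 1 of both genotypes stood apart from the other 6 along the first principal component, which held 41.2% of the variance. The cartilage genes col2a1a and matn1 were read as a check of the sorted cell type. The col2a1a promoter drives a reporter used in the sort, so the level of col2a1a is not independent of the sort. It was 8994 FPKM in WT replicate 1 and 10783 FPKM in kat6a-deficient replicate 1, against 17360 to 20538 FPKM in the others. For matn1 the values were 7687 and 10960 FPKM against 19315 to 21751 FPKM. Not all cartilage genes were lower there. The aggrecan gene acana was 2389 and 2127 FPKM in these libraries against 1240 to 1636 FPKM in the others. The link protein gene hapln1a was 321 and 234 FPKM against 35.2 to 74.3 FPKM. The kat6a transcript was 32.0, 15.2, 16.3 and 18.9 FPKM in WT and 28.2, 12.0, 12.4 and 9.09 FPKM in kat6a-deficient libraries, lower in 4 of 4 pairs of the same number but not past the test (log2 fold change -0.46 ± 0.36, SE, n = 4 per group; limma, adjusted p = 0.958). In bulk RNA, fewer cells of a type and less RNA per cell cannot be told apart.

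Of the 34 genes, 14 had a mean of at least 0.5 FPKM over the 8 libraries and entered the test, 10 were lower but above 0 in at least 1 library, and 10 were listed at 0 in every library. By class, 2 of 7 collagen receptor genes, 5 of 11 fibronectin and RGD receptor genes, 2 of 6 laminin receptor genes, 0 of 5 leukocyte integrin genes and 4 of 4 beta1 genes passed this filter, as did itgbl1. The genes nearest to the filter were itga6b and itgb4 on the inside, with means of 0.512 and 0.610 FPKM, and itga8 on the outside, with 0.472 FPKM. The 14 genes include some that passed only through the libraries in which they were high, so counts over them describe those 14 and not the family.

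The beta1 subunit gene itgb1a was the most abundant integrin transcript in every library. It measured 162, 126, 130 and 131 FPKM in WT and 161, 125, 114 and 144 FPKM in kat6a-deficient libraries (137 ± 16.5 and 136 ± 20.7, SD, n = 4 each), and ranked 309 among all 32057 genes by mean. The groups overlapped throughout. The 4 beta1 genes together made up 92.6% to 95.8% of all beta subunit FPKM, and itgb1a alone made up 78.0% to 85.6% of the beta1 FPKM in WT and 80.9% to 91.0% in kat6a-deficient libraries.

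The other 3 beta1 genes, itgb1b, itgb1b.2 and itgb1b.1, are direct neighbours in the reference annotation, with 0 protein-coding genes between them. The sources used here do not say how reads of such related neighbours were divided, so their separate values are uncertain. The value of itgb1b was 30.1, 16.3, 11.9 and 15.8 FPKM in WT and 36.3, 13.5, 12.9 and 12.8 FPKM in kat6a-deficient libraries, highest in the library numbered 1 of each genotype. The value of itgb1b.2 was 13.8, 7.15, 7.69 and 6.78 FPKM in WT and 0.863, 4.86, 9.90 and 1.48 FPKM in kat6a-deficient libraries: 3 of these 4 lay below the WT range and replicate 3 lay inside it. The lowest of the 3, itgb1b.1, was at 1.72, 2.16, 2.39 and 5.73 FPKM in WT and at 0.883, 1.49, 4.02 and 0 FPKM in kat6a-deficient libraries.

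The summed FPKM of itgb1b.2 and itgb1b.1 showed the same split: 15.5, 9.31, 10.1 and 12.5 in WT against 1.75, 6.36, 13.9 and 1.48 in kat6a-deficient libraries. Their neighbour itgb1b therefore held 54.1% to 66.0% of the FPKM of the 3 genes in WT and a wider 48.1% to 95.4% in kat6a-deficient libraries. Replicates 1 and 4 of the kat6a-deficient group had the high shares, and replicate 3 had the low one. FPKM is scaled to transcript length, so even the sum of all 3 genes can depend on how reads were divided. This sum overlapped between the groups. It was 45.5, 25.6, 22.0 and 28.3 FPKM in WT and 38.1, 19.8, 26.8 and 14.3 FPKM in kat6a-deficient libraries.

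Among the alpha subunits, the collagen receptor gene itga10 came first outside the libraries numbered 1. It measured 37.9, 44.4, 59.0 and 56.9 FPKM in WT and 40.9, 53.0, 59.9 and 63.5 FPKM in kat6a-deficient libraries (49.5 ± 10.1 and 54.3 ± 9.94, SD, n = 4 each), with rank 729 among all genes. The value was higher in the kat6a-deficient library in 4 of 4 pairs, but the groups overlapped and replicate 1 was the lowest of each. The second collagen receptor gene, itga11a, was about an order of magnitude lower, at 0.915, 5.40, 5.56 and 3.31 FPKM in WT and 0.495, 5.19, 6.46 and 3.96 FPKM in kat6a-deficient libraries, again lowest in replicate 1 of both. Of the rest of the class, itga1 and itga2.3 had means of 0.0345 and 0.0233 FPKM, and itga2.1, itga2.2 and itga11b were listed at 0 in all 8 libraries.

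The fibronectin and RGD receptor alpha genes itga9, itga5 and itgav had their highest value, by a wide gap, in the library numbered 1 of each genotype. The alpha9 gene, itga9, was at 131 FPKM in WT replicate 1 and 101 FPKM in kat6a-deficient replicate 1. In the other libraries it was at 7.22, 6.31 and 7.55 FPKM in WT and at 3.92, 6.27 and 3.11 FPKM in the kat6a-deficient group. Replicate 1 was thus 18.6 times the mean of the other 3 in WT and 22.7 times in kat6a-deficient libraries. On the log2(FPKM + 1) scale the differences were 4.04 and 4.22. Summed over both genotypes, the difference lay above that of 99.9% of the 11763 tested genes.

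The alpha5 gene itga5, whose product pairs with beta1 as the main fibronectin receptor, was at 67.7, 19.7, 13.4 and 10.9 FPKM in WT and 57.7, 16.9, 13.2 and 16.9 FPKM in kat6a-deficient libraries. The alphaV gene itgav, whose product pairs with several beta subunits and binds vitronectin and latent TGF-beta, was at 41.3, 10.4, 9.89 and 14.3 FPKM in WT and 35.0, 9.41, 8.77 and 5.87 FPKM in kat6a-deficient libraries. Replicate 1 exceeded the mean of the others 4.62-fold and 3.68-fold for itga5 and 3.58-fold and 4.36-fold for itgav, in WT and kat6a-deficient libraries respectively.

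The other genes of this class past the filter did not share that pattern. The alpha4 gene itga4, which encodes a receptor of fibronectin and VCAM1, was at 6.82, 14.9, 11.2 and 12.5 FPKM in WT and 10.5, 19.9, 8.37 and 13.005 FPKM in kat6a-deficient libraries. The alphaV partner itgb5 was the flattest, at 8.94, 10.7, 7.85 and 8.0003 FPKM in WT and 8.39, 10.9, 10.8 and 12.3 FPKM in kat6a-deficient libraries. Below the filter, itga8 ranged from 0 to 1.25 FPKM and was highest in the library numbered 1 of each genotype, at 0.859 and 1.25 FPKM. The gene itgb3b ranged from 0 to 0.898 FPKM, and itgb6 and itgb8 averaged 0.0213 and 0.0119 FPKM. The genes itga2b and itgb3a, the pair of the platelet fibrinogen receptor, were listed at 0 in every library. Of 12 thrombocyte and red blood cell markers, mpl, gata1a and slc4a1a were also at 0 in every library, and the summed level of the list was 12.6 to 70.2 FPKM in WT and 11.03 to 48.1 FPKM in kat6a-deficient libraries.

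**Figure D1:**
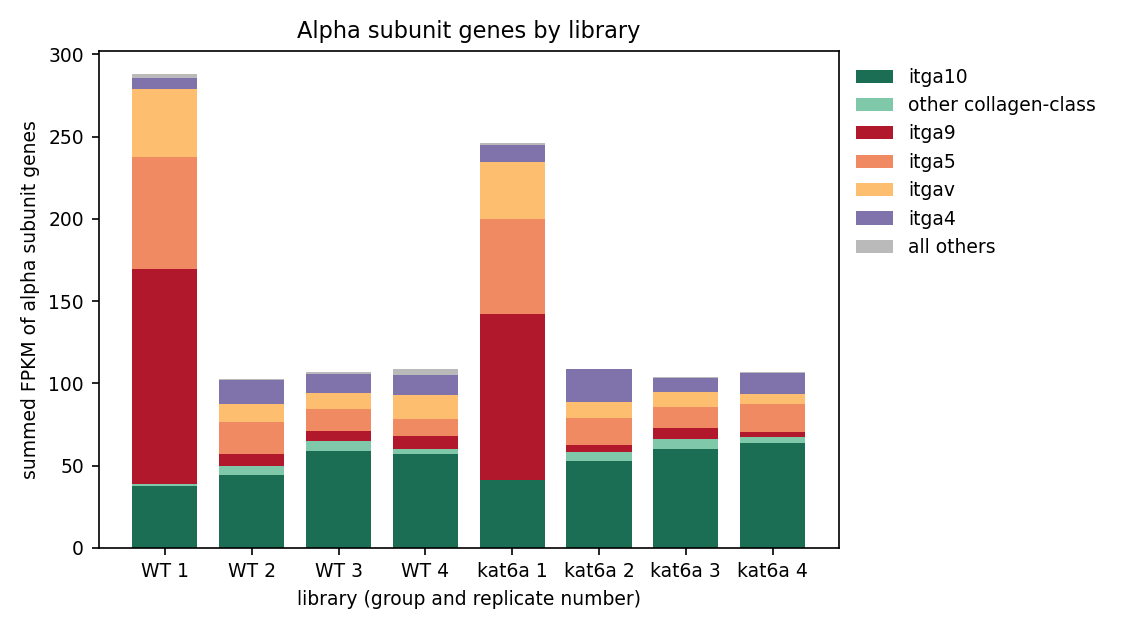
Stacked bars give the summed FPKM of the alpha subunit genes in each library, labelled by group and replicate number, with 1 colour for itga10, itga9, itga5, itgav and itga4 each, 1 for the other collagen receptor genes and 1 for all remaining genes. The bars of replicate 1 reach 288 and 246 FPKM, with itga9 at 131 and 101 FPKM, and the other 6 lie between 102.5 and 109 FPKM.

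Set against the same contrast over all genes, 3 of the 14 tested members (21.4%) were at least 2-fold higher on the log2(FPKM + 1) scale in both libraries numbered 1 than in the mean of the others of their genotype, against 9.15% of all tested genes. These 3 were itga9, itga5 and itgav. Just outside that threshold stood itgb1b, with log2 differences of 0.99 in WT and 1.41 in kat6a-deficient libraries, and itgbl1, with 1.74 and 0.86. A single member, itga11a (7.14% of 14), was at least 2-fold lower in both, at -1.59 and -2.05, against 1.94% of all genes. This contrast has 1 library on one side in each genotype and no test, and which number stands apart was known from the libraries themselves.

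**Figure D2:**
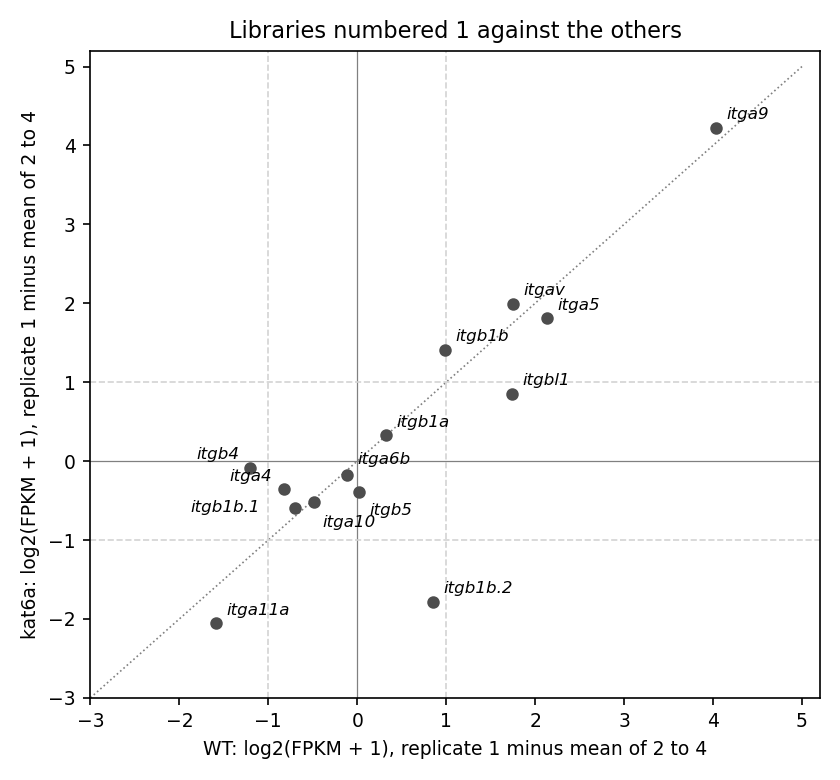
Each point is 1 of the 14 integrin genes that passed the filter, with the log2(FPKM + 1) of the library numbered 1 minus the mean of replicates 2 to 4 in WT on the x axis and in kat6a-deficient libraries on the y axis. Dashed lines at 1 and -1 mark 2-fold and the dotted line marks equal values; itga9 lies farthest out at 4.04 and 4.22, and itgb1b.2 lies off the line at 0.85 and -1.78.

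The makeup of the alpha subunit pool differed in the same libraries. The fibronectin and RGD class held 86.0% and 83.2% of all alpha FPKM in WT and kat6a-deficient replicate 1, against 38.9% to 51.1% in the other WT and 35.6% to 46.1% in the other kat6a-deficient libraries. Within that class, itga9 alone held 45.5% and 40.8% of all alpha FPKM in replicate 1 and 2.91% to 7.04% elsewhere. The share of itga10 was 13.2% and 16.6% in replicate 1 and between 43.4% and 59.5% elsewhere. Summed alpha FPKM was 288 and 246 in replicate 1 and between 102.5 and 109 elsewhere, so that alpha over beta FPKM was 1.33 and 1.19 there and 0.624 to 0.697 in the other 6 libraries. Integrin transcripts made up 0.160% and 0.148% of all FPKM in replicate 1 and 0.0769% to 0.0887% elsewhere.

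The order of levels therefore depended on those libraries. Over the 4 WT libraries the order by mean was itgb1a, itga10, itga9, itga5, itgav, itgb1b, itga4, itgb5, itgb1b.2, itgbl1, itga11a, itgb1b.1, itgb4 and itga6b, and only the ranges of the neighbours itgb1a and itga10 did not overlap. Over the 6 libraries numbered 2 to 4 of both genotypes the order began with itgb1a, itga10, itga5, itgb1b, itga4, itgb5 and itgav, and itga9 stood in place 9. There the ranges separated itgb1a from itga10 and itga10 from itga5, and no later pair of neighbours.

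**Figure D3:**
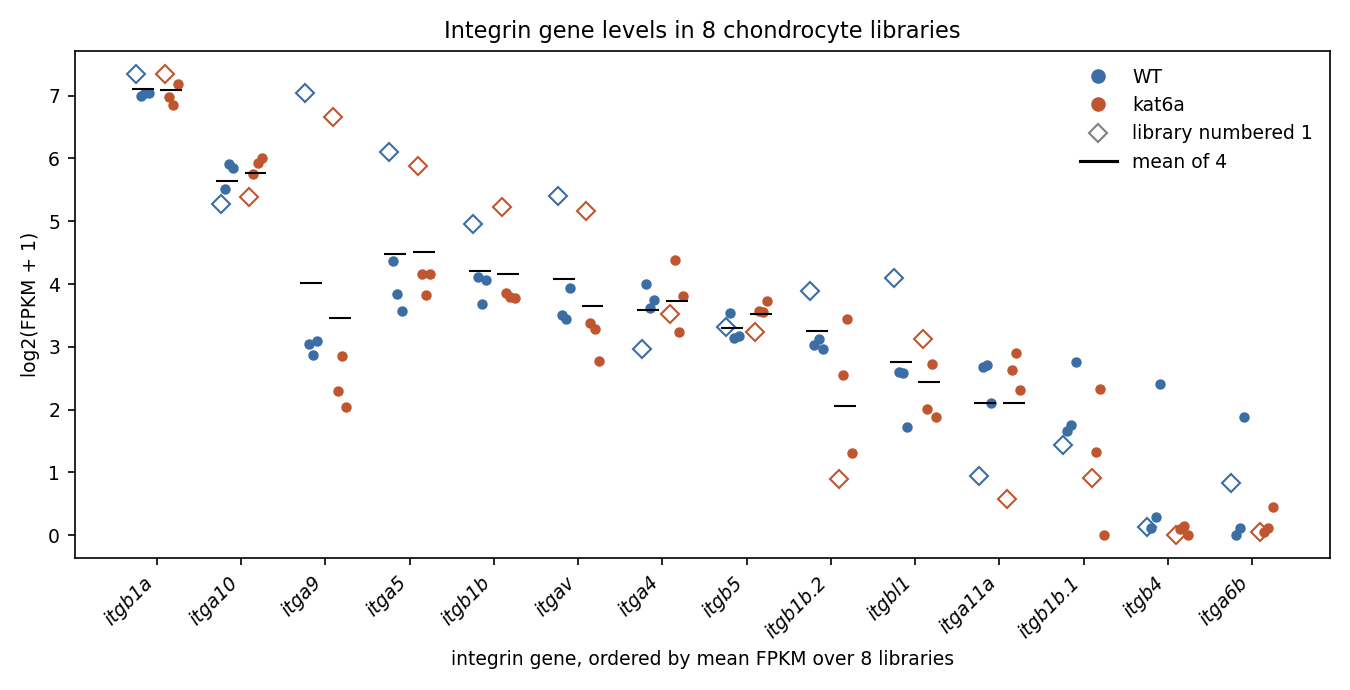
Level of each integrin gene that passed the filter, as log2(FPKM + 1), in the 4 WT and 4 kat6a-deficient libraries; short lines are means of the log values of 4 libraries, left out for genes listed at 0 in any library. In each library itgb1a is the highest point, and itga9 comes nearest to it in WT replicate 1, at 131 FPKM.

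The laminin receptor genes encode receptors of a basement membrane protein and, as alpha6 beta4, a part of the hemidesmosomes of epidermis. Most of their values were near 0 outside 1 library. The beta4 gene itgb4 was at 0.101, 0.0783, 0.217 and 4.31 FPKM in WT and at 0, 0.0732, 0.105 and 0 FPKM in kat6a-deficient libraries. Its partner itga6b was at 0.783, 0, 0.0860 and 2.71 FPKM in WT and at 0.0323, 0.0316, 0.0865 and 0.369 FPKM in kat6a-deficient libraries. Both were highest in WT replicate 4, and neither would have passed the filter without that library, with means of 0.0822 and 0.198 FPKM over the other 7. Without WT replicate 1, the mean of itga6b was 0.473 FPKM, also below the filter. The hemidesmosome collagen gene col17a1a, an epidermis marker, was at 15.2 FPKM in WT replicate 4 and between 0.125 and 0.627 FPKM in the other 7.

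The summed level of the 18 epidermis markers was 1675, 391, 394 and 948 FPKM in WT and 1160, 399, 424 and 471 FPKM in kat6a-deficient libraries. The keratin gene krt8 alone gave 1470 FPKM and 1000 FPKM in the libraries numbered 1. Without krt8 the sum was 204, 76.5, 117 and 706 FPKM in WT and 160, 67.4, 107 and 131 FPKM in kat6a-deficient libraries, highest in WT replicate 4. That sum does not speak for each marker. The genes krt15 and tp63 were highest in WT replicate 1, at 16.4 and 2.11 FPKM, against 10.1 and 1.12 FPKM in WT replicate 4. The remaining markers were highest in WT replicate 4. None of the 18 was listed at 0 in every library. The part of epidermal RNA in the levels of itgb4 and itga6b was not tested. The other laminin receptor genes itga6a, itga6l and itga3a had means of 0.185, 0.0347 and 0.0467 FPKM, and itga3b was listed at 0 in every library.

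**Figure D4:**
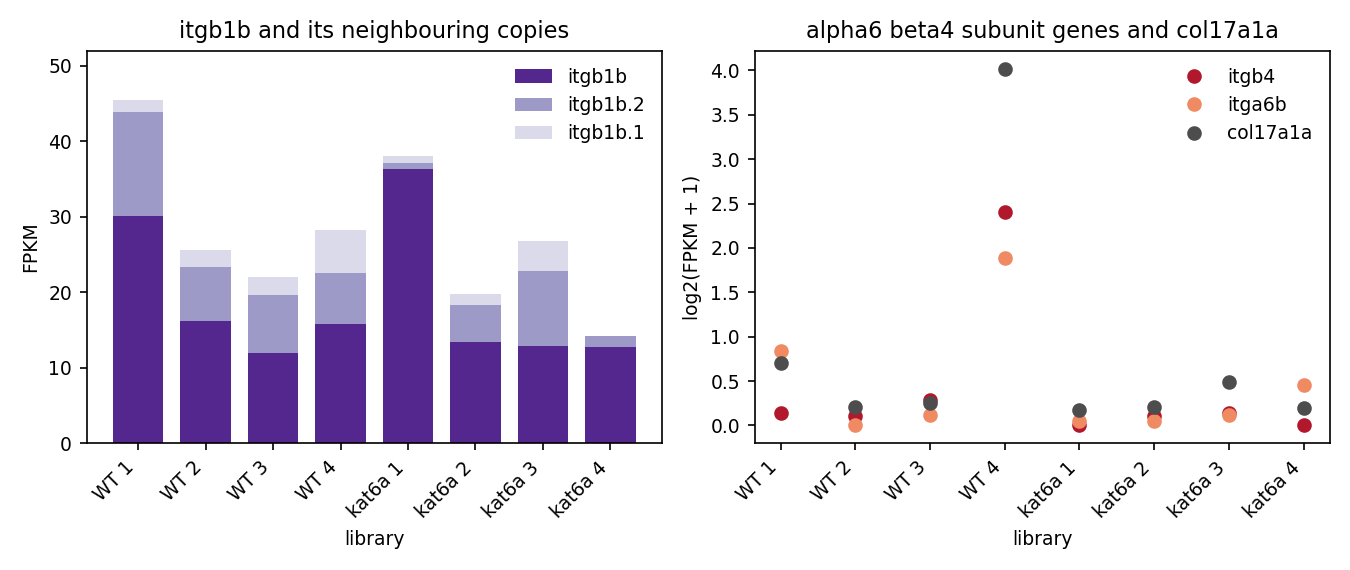
The left panel stacks the FPKM of itgb1b, itgb1b.2 and itgb1b.1 in each library, and the right panel gives itgb4, itga6b and the epidermal gene col17a1a as log2(FPKM + 1) in each library. On the left, itgb1b.2 and itgb1b.1 together are lowest in kat6a-deficient replicates 1 and 4, at 1.75 and 1.48 FPKM; on the right, all 3 genes are highest in WT replicate 4.

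Of the leukocyte integrin genes, itgb7 was above 0 only in the library numbered 1 of each genotype, at 0.305 and 0.313 FPKM. The beta2 gene itgb2, the common beta chain of white blood cells, and itgam, itgae.1 and itgae.2 were listed at 0 in all 8 libraries. Of the 18 leukocyte markers found, 10 were also at 0 throughout, among them ptprc, coro1a, lcp1, mpx and lyz, and the list summed to 6.65 to 8.67 FPKM in WT and 11.2 to 15.1 FPKM in kat6a-deficient libraries. The genes laptm5 and mfap4 gave 5.78 to 7.46 FPKM of this in WT and 10.7 to 14.4 FPKM in kat6a-deficient libraries, and the rest of the list summed to 0.197 to 1.21 FPKM in WT and 0 to 1.92 FPKM in kat6a-deficient libraries.

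The beta-like gene itgbl1 was at 16.1, 5.07, 5.02 and 2.32 FPKM in WT and at 7.68, 3.05, 5.64 and 2.70 FPKM in kat6a-deficient libraries. Its highest value in each group was again in replicate 1.

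Whether kat6a deficiency changed integrin transcripts was asked in the fit over all 11763 genes. No integrin gene passed the threshold, 0 of 14, against 0.017% of all tested genes (2 lens genes, mipb and cryba4; limma on log2(FPKM + 1), adjusted p under 0.05). At an unadjusted p under 0.05 stood 1 of 14, against 4.57% of all genes: itgb1b.2 was lower, against 3.92% of all genes, and 0 were higher, against 0.646%. No integrin gene had groups that did not overlap, as 3.13% of all genes did. The log2 fold change was below 0 for 10 of the 14, as for 69.5% of all genes, and the median of the 14 was -0.18 beside -0.16 over all genes. Among these 10, itgb4 and itga6b passed the filter only through their high values in WT replicate 4. Their direction was thus tied to the filter and says nothing about kat6a.

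The difference of itgb1b.2 was -1.20 ± 0.52 (SE, n = 4 per group), with a 95% interval of -2.36 to -0.035. Its limma p was 0.0446, its adjusted p was 0.958, and the exact two-sided permutation test gave p = 0.143. Without kat6a-deficient replicate 3 the value was -1.66. The groups then no longer overlapped, but that replicate was the only library of its group inside the WT range, so this was certain beforehand. In that fit 711 of 11719 genes were lower without overlap, among them also itgb1b.1 and itgb4. Without kat6a-deficient replicate 1 the difference of itgb1b.2 was -0.81, and without both libraries numbered 1 it was -0.60. The neighbour itgb1b.1 was at -0.76 ± 0.49. The genes itgb4 and itga6b, which passed the filter only through WT replicate 4, were at -0.67 ± 0.49 and -0.54 ± 0.41.

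The genes itgb1a and itga10 had the narrowest intervals of the 14. For itgb1a the log2 fold change was -0.016 ± 0.17 with a 95% interval of -0.39 to 0.35, and for itga10 it was 0.13 ± 0.21 with an interval of -0.34 to 0.61. For itga9, with libraries of such different levels, it was -0.55 ± 1.16 and the interval of this unpaired fit ran from -3.12 to 2.03, which includes several-fold differences in either direction. The remaining values were 0.23 ± 0.22 for itgb5, 0.15 ± 0.31 for itga4, 0.034 ± 0.59 for itga5, -0.0041 ± 0.56 for itga11a, -0.042 ± 0.38 for itgb1b, -0.32 ± 0.49 for itgbl1 and -0.42 ± 0.56 for itgav (each log2, SE, n = 4 per group). For itgb1a, itgb1b and itga11a the sign changed with the scaling of the libraries.

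Leaving out both libraries numbered 1, the groups of itga9, itgav and itgb5 no longer overlapped. The value for itga9 was -0.60, with 6.31 to 7.55 FPKM in WT and 3.11 to 6.27 FPKM in kat6a-deficient libraries, and that for itgav was -0.48, with 9.89 to 14.3 FPKM and 5.87 to 9.41 FPKM. Both were lower in 4 of 4 pairs of the same number when all libraries were used, a count that has no background over all genes. A different measure, the log2 fold change, was below 0 for 69.5% of all genes. Without both libraries numbered 1, the value for itgb5 was 0.33, with higher values in the kat6a-deficient group. In that smaller fit 9.37% of all genes were lower and 3.18% higher without overlap, and none of the 3 integrin genes was called (limma, adjusted p = 0.782 for each). With the replicate number as a block, itga9 had an unadjusted p of 0.0308 and an adjusted p of 0.454 (limma), and 8.31% of all genes were lower at an unadjusted p under 0.05 in that fit.

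**Figure D5:**
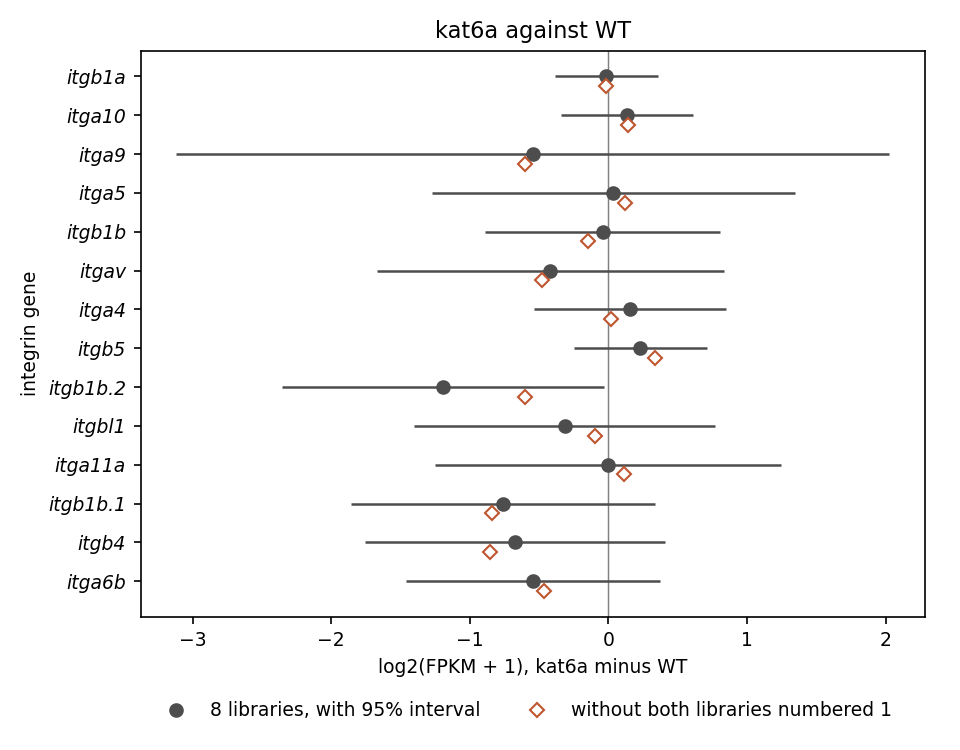
Filled points give the log2 fold change, kat6a-deficient minus WT on the log2(FPKM + 1) scale, of the 14 integrin genes that passed the filter, with 95% intervals from limma, and open diamonds give the value without both libraries numbered 1. Every interval but that of itgb1b.2 (-2.36 to -0.035) includes 0, and that of itga9 is the widest.

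In the authors' deposited table, 24 of the 34 integrin genes carried a p-value. The lowest was 0.137, for itgb6, and the q-values ran from 0.877 to 0.995. Their fold, WT over kat6a, was 0.636 for itga9 and 0.899 for itgav. These folds point to higher levels in the kat6a-deficient group, the reverse of the direction found here. The direction was also reversed for itgb1a (0.954), itgb1b (0.821), itgbl1 (0.971) and itga4 (1.05). For itgb1b.2 the fold was 2.26, the same direction as here, and the other tested integrin genes also had the same direction. The reason for the difference was not tested.

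The genes that work with integrins were read from the same fit in 10 lists with 124 tested genes. No gene passed the threshold, beside 0.017% of all tested genes. At an unadjusted p under 0.05, 1 was lower and 0 were higher, beside 3.92% and 0.646% of all genes, and 2 had groups that did not overlap, beside 3.13% of all genes. Of these 2, agrn passed the filter only through WT replicate 1. In the libraries numbered 1, 31 of the 124 were at least 2-fold higher in both genotypes and 1 was at least 2-fold lower. The shares over all genes were 9.15% and 1.94%.

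Of the activators that bind the beta chain or prime its binding (talin, kindlin and Rap1), 9 were tested and the median log2 fold change was -0.17. The talin gene tln1 averaged 33.9 ± 15.6 FPKM in WT and 29.5 ± 12.0 FPKM in kat6a-deficient libraries (SD, n = 4 each), and the kindlin gene fermt2 was 49.0 and 38.2 FPKM in the libraries numbered 1 against 11.9 to 15.9 FPKM in the others. The smallest p values belonged to rap1b and raph1b. The scaffold of ILK, PINCH and parvin had 4 tested genes with a median of -0.50, led by ilk at -0.48 ± 0.38 and lims1.

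The actin linkers had 13 tested genes, of which 7 were at least 2-fold higher in both libraries numbered 1. Among them tns2a, a tensin, was 137 and 97.3 FPKM there and 25.6 to 32.0 FPKM elsewhere. The vinculin gene vclb was at 13.6, 11.8, 10.7 and 11.3 FPKM in WT and at 8.16, 10.7, 6.37 and 4.66 FPKM in kat6a-deficient libraries, lower in 4 of 4 pairs. Its difference was -0.65 ± 0.26 with an unadjusted p of 0.0319 and an adjusted p of 0.958 (limma, n = 4 per group), and kat6a-deficient replicate 2 lay just inside the WT range. The zyxin gene zyx was at -0.68 ± 0.43.

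Of the 16 tested genes of FAK, Src and paxillin signalling, the 11 of integrin inactivation and traffic and the 14 tetraspanins and lateral partners, the medians were -0.18, -0.11 and 0.094. The focal adhesion kinase gene ptk2aa averaged 41.4 ± 10.6 FPKM in WT and 32.7 ± 2.76 FPKM in kat6a-deficient libraries (SD, n = 4 each). The tetraspanin gene cd82a was at 12.2, 13.7, 13.005 and 15.8 FPKM in WT and at 10.2, 10.2, 10.3 and 10.7 FPKM in kat6a-deficient libraries, so its groups did not overlap, but its adjusted p was 0.958 (limma, log2 fold change -0.36 ± 0.19, n = 4 per group).

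The collagen list and the list of fibronectin, RGD and alpha9 ligands each summed far above the integrin genes, which summed to 261 to 521 FPKM per library. The laminin and basement membrane list did not, at 184 to 242 FPKM per library. The 21 tested collagen genes, with a median of -0.23, summed to 30635 and 35912 FPKM in the libraries numbered 1 and to between 56455 and 67688 FPKM in the others, of which col2a1a gave 29.4% to 31.7%. Among them 6 genes were at least 2-fold higher and 1 at least 2-fold lower in both libraries numbered 1. The smallest p values were those of col5a1 at -0.40 ± 0.21 and col11a1b at -0.36. The 11 laminin and basement membrane genes had a median of -0.45. Agrin, agrn, was the second adhesion gene whose groups did not overlap. It was at 0.544 to 2.13 FPKM in WT and 0.0308 to 0.493 FPKM in kat6a-deficient libraries. Its mean over the 6 libraries numbered 2 to 4 was 0.441 FPKM, below the filter. It passed only through WT replicate 1, so its direction was tied to the filter and says nothing about kat6a.

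The 23 tested fibronectin, RGD and alpha9 ligand genes had a median of -0.20, and 9 of them were at least 2-fold higher in both libraries numbered 1. The fibronectin gene fn1b, a ligand of alpha5 beta1, was at 1378, 162, 164 and 189 FPKM in WT and at 605, 103, 87.1 and 111 FPKM in kat6a-deficient libraries. It was highest in the libraries in which itga5 and itga9 were highest, and lower in the kat6a-deficient library in 4 of 4 pairs, with a log2 fold change of -0.88 ± 0.78 (limma, adjusted p = 0.963, n = 4 per group). Its level in the libraries numbered 1 was 8.03-fold and 6.02-fold that of the others. The thrombospondin gene thbs1b ran the other way, at 0.411 and 0.506 of the mean of the others, and milk fat globule gene mfge8a was higher in 4 of 4 pairs, at 0.34 ± 0.24. The list named for blood and leukocyte counter-receptors had 2 tested genes, jam3b and f13a1b, with a median of -0.077. The latter encodes a transglutaminase, an enzyme and not a receptor. The level of f13a1b was 903 and 600 FPKM in the libraries numbered 1 against 58.1 to 105 FPKM in the others.

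The summed levels of the other marker lists were as follows. The 16 chondrocyte markers summed to 38594 and 46055 FPKM in the libraries numbered 1 and 69887 to 81181 FPKM in the others. The sum does not speak for each marker: 2 of the 16 were at least 2-fold higher in both libraries numbered 1 and 1 was at least 2-fold lower. The shares over all tested genes were 9.15% and 1.94%. The tendon and perichondrium list, none of whose genes was at 0 throughout, summed to 733 to 884 FPKM in WT and 1257 to 1722 FPKM in kat6a-deficient libraries. The tenascin X gene tnxba alone gave 334 to 590 FPKM of this in WT and 766 to 1484 FPKM in kat6a-deficient libraries, and the rest of the list summed to 551, 273, 294 and 350 FPKM in WT and 517, 247, 251 and 238 FPKM in kat6a-deficient libraries. In the same order of groups, the muscle list summed to 303 to 517 FPKM and 454 to 699 FPKM, the endothelium list to 9.01 to 16.6 FPKM and 8.02 to 12.9 FPKM, the list of glia, crest and neuron to 88.6 to 171 FPKM and 76.4 to 138 FPKM, and the lens list to 88.7 to 274 FPKM and 0.747 to 29.0 FPKM. Of these lists, 1 of 15 endothelium markers (she), 1 of 18 muscle markers (desmb) and 1 of 14 lens markers (crygm3) were at 0 in every library. Most of the glia, crest and neuron sum came from sox10, whose promoter drives a reporter used in the sort. That gene gave 69.96 to 144 FPKM in WT and 63.8 to 123 FPKM in kat6a-deficient libraries. Most of the endothelium sum came from esama, at 6.76 to 12.8 FPKM in WT and 7.11 to 12.2 FPKM in kat6a-deficient libraries. The part of these marker lists in the integrin values was not tested.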

How the data were processed

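The authors deposited 1 table of FPKM values per gene and library, with their own fold (a ratio of WT over kat6a), p-value and q-value columns, per the file headers. The submitters' processing notes name HISAT2, StringTie and the build GRCz10 but no roles or settings. All library columns matched a sample title (0 unmatched). Members, lists and alternatives were chosen with earlier results of these data known. Ligand classes come from mammalian counterparts. The reference tables are of another build, so no coordinates or sequences are given, and they served for names (34 of 34 members found) and neighbours (31 found).

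Differences (kat6a over WT) were tested two-sided on log2(FPKM + 1) by limma 3.58.1 (R 4.3.3, variance trend on mean level) for the 11763 genes with a mean of at least 0.5 FPKM, adjusted by Benjamini-Hochberg over all of them and called at 0.05. This scale understates the change of low genes. The limma script was tested on simulated data. Exact permutation tests used all 70 splits, with a smallest possible p of 0.0286 (SciPy 1.17.1, Python 3.11.15). Every integrin gene past the filter is named; from each adhesion list, the rule names the 2 genes with the smallest p and the 2 with the highest mean, and some are left out for length. The agrn and cd82a overlap and the pattern of the libraries numbered 1 were singled out after their values were seen.

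For the same-numbered libraries 1 to 4, the correlation of deviations from the group means over genes was 0.589, 0.347, 0.127 and 0.151. Libraries of different numbers among 2 to 4 gave 0.0593 to 0.158, a range that holds the values of numbers 3 and 4. The data thus matched numbers 1 and 2 but not 3 and 4. Counts over 4 pairs of the same number take the pairing as an assumption, which the labels do not state. The share of all genes with the same direction in 4 of 4 pairs was not computed, so these counts have no background. The title of WT replicate 4 was followed where its library name repeats the number 3. Alternatives were another pseudocount, other filters, 3 scalings, array weights, the replicate block, and leaving out each library or both numbered 1.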

Additional observations from a re-analysis of the deposited data

Results flagged for a closer look

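In groups of 4 libraries, values were marked where the gap of the highest or lowest library to the nearest other exceeded Dixon's critical share of the group's range. Of 30 groups tested, 14 were marked, and most of the marked values came from the libraries numbered 1. The rule marks about 1 in 20 groups by chance only where groups are independent and values normally distributed. Here the genes share the same libraries, their sum is among the groups, and the values are FPKM without a log. Moreover, itgb4 and itga6b passed the filter only with WT replicate 4. The count of 14 therefore cannot be set against that rate.

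WT replicate 1 was marked for itgb1a at 161.6 FPKM, itga9 at 130.9 FPKM, itga5 at 67.7 FPKM, itgav at 41.3 FPKM, itgb1b.2 at 13.8 FPKM and the sum of all members at 520.9 FPKM. The kat6a-deficient replicate 1 was marked for itga9 at 100.5 FPKM, itga5 at 57.7 FPKM, itgb1b at 36.3 FPKM, itgav at 35.0 FPKM and the sum of all members at 461.8 FPKM. WT replicate 4 was marked for itgb1b.1 at 5.73 FPKM and itgb4 at 4.31 FPKM, and kat6a-deficient replicate 4 for itga6b at 0.369 FPKM.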

How the results depend on the processing

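No integrin gene and no adhesion gene was called under any alternative tried. Over all genes the count of calls, 2 with the settings reported, was 1 with a pseudocount of 0.1, 0 without a filter and 0 with median-ratio, quantile or upper-quartile scaling. It was 14 with array weights, 1 with the replicate block, 0 with the replicate block and median-ratio scaling together, 4 without the pair numbered 1, and 0 to 5 when single libraries were left out. The count of integrin genes lower at an unadjusted p under 0.05, 1 as reported, was 0 without a filter, under each of the 3 scalings, with array weights, with the replicate block and median-ratio scaling together and without the pair numbered 1, and 0 to 2 when single libraries were left out. The replicate block also gave 1, but that gene was itga9 in place of itgb1b.2; the block changed no call of an integrin gene.

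The median log2 fold change over all genes moved from -0.16 to -0.040 with median-ratio scaling and 0.017 with quantile scaling. Signs turned for itgb1b (0.11 with median-ratio, 0.055 with quantile and 0.17 with upper-quartile scaling, and 0.11 with the block and median-ratio scaling), itgb1a (0.14, 0.20 with upper-quartile scaling, and 0.14 with the block and median-ratio scaling) and itga11a (0.10, 0.27 and 0.15 with the 3 scalings, 0.10 with the block and median-ratio scaling, 0.023 with array weights and 0.11 without the pair numbered 1). For jam3b the value with array weights was -0.043.

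With single libraries left out, the log2 fold change ran from -0.92 to 0.024 for itgav, -0.66 to 0.13 for itgbl1, -0.061 to 0.32 for itga4, -1.61 to 0.46 for itga9, -0.39 to 0.21 for itgb1b, -0.10 to 0.065 for itgb1a, -0.42 to 0.58 for itga5 and -0.39 to 0.50 for itga11a. Among adhesion genes it ran from -0.084 to 0.32 for jam3b, -1.02 to 0.59 for f13a1b and -0.64 to 0.045 for raph1b. The cause of these turns was not tested. For itgb4 and itga6b no value could be had with the filter at a mean of 1 FPKM or without WT replicate 4, nor for itga6b without WT replicate 1, since they then lay below the filter. Depth is unknown, so low values carry no stated precision. In the level order in WT, itgb1a came before itga10 by mean under median-ratio scaling, and itga9 stood above itga10 without WT replicate 3 or 4.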
